A study of Mus musculus with 4 samples.

Results

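The genes described here are 40 genes of G2 and mitosis, from the cyclins and kinases that open mitosis to the motors and scaffolds that end it. They were taken as every probe set that the platform annotation gives to exactly 1 gene, where that gene stood on the list. Of the 40 genes, 39 had such a probe set, out of 18193 genes with one, and they were read by 88 of 34945 probe sets. Ccnb1, cyclin B1, had none and was not analysed here. Expression was measured in CD4+ T cells of mice with green fluorescent protein (GFP) knocked into the Foxp3 gene, so that GFP marks Foxp3, the transcription factor of regulatory T cells. CD25, a chain of the receptor for IL-2, divided them further. The 4 groups were cells with GFP and high CD25 (CD25hi Foxp3+), with GFP and low CD25 (CD25lo Foxp3+), with CD25 and no GFP (CD25+ Foxp3-), and with neither (CD25- Foxp3-). All came from pooled spleens and lymph nodes of 25 male Foxp3-GFP knock-in mice on a B6/129 F2 background, aged 5 to 8 weeks. Cells bearing CD8, B220, CD11b, NK1.1 or DX5 were depleted before the sort, and every population carried the same reporter allele. Each population was read on 1 array, so no difference below has a test, and sizes are given instead.

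Most of these genes are transcribed late in the cell cycle, from S phase into mitosis, and are kept off in resting cells. Cyclin A2 and the B cyclins switch on the kinase CDK1, the spindle checkpoint holds chromosomes until every kinetochore is attached, and the anaphase promoting complex then destroys cyclins and securin so that the cell can divide. Most CD4+ T cells of an unchallenged mouse are resting, and transcripts of this set are used as a sign of cycling cells. In a sorted bulk sample, more cycling cells and more of these transcripts per cell cannot be told apart.

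The 4 arrays had nearly equal scales, with median intensities between 15.03 and 15.6. An intensity is the deposited brightness summary of a probe set on a linear scale. Values under 10.1 were set to that floor, a gene counted as measured when its highest value reached 32.5, and the brightest of several probe sets stood for its gene, which left 9622 measured genes. All 39 mitosis genes were measured, 36 of them at or above 32.5 on every array. The other 3, Cdc25c, Aurkb and Anln, fell short of it in CD25- Foxp3- cells alone, so that their passing of the filter rested on the other 3 arrays. None of the 39 was at the floor, so no fold below is a bound. Foxp3 was read at 1308 in CD25hi Foxp3+, 1117 in CD25lo Foxp3+ and 16.8 in CD25+ Foxp3- cells, against 17.6 in CD25- Foxp3- cells. Il2ra, which encodes CD25, was read at 1562 in CD25hi Foxp3+, 288 in CD25lo Foxp3+ and 283 in CD25+ Foxp3- cells, against 22.3 in CD25- Foxp3- cells. Both are genes of the sort, and Il2ra was nearly the same in CD25lo Foxp3+ and CD25+ Foxp3- cells. The T cell genes Cd3d, Cd3e, Cd3g, Cd4 and Cd5 were all measured, at 497 or more on every array. All 5 were lowest in CD25+ Foxp3- cells, by a median log2 difference of -0.61 against CD25- Foxp3- cells, with Cd3d at 9007 in CD25hi Foxp3+, 9946 in CD25lo Foxp3+ and 6179 in CD25+ Foxp3- cells, against 9886 in CD25- Foxp3- cells. The part of this shift in the mitosis values of CD25+ Foxp3- cells was not tested. The ratio of the 3′ to the 5′ actin control, a sign of RNA length, was 1.94, 2.21 and 2.65 in CD25hi Foxp3+, CD25lo Foxp3+ and CD25+ Foxp3- cells, against 2.29 in CD25- Foxp3- cells. For Gapdh it was 2.40, 2.33 and 2.28 against 3.21, the highest where the mitosis genes were lowest, and its part in the result was not tested.

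The mitosis genes were low together in CD25- Foxp3- cells and higher in the other 3 populations. In CD25lo Foxp3+ cells 35 of 39 were at least 2-fold higher than in CD25- Foxp3- cells, where 9.09% of all measured genes were. In CD25+ Foxp3- cells 34 of 39 were, against 12.1% of all measured genes, and in CD25hi Foxp3+ cells 29 of 39 were, against 7.09%. None of the 39 was 2-fold lower in these comparisons, where 3.74% of all measured genes were in CD25hi Foxp3+, 6.88% in CD25lo Foxp3+ and 6.43% in CD25+ Foxp3- cells. In all 3 populations at once 28 of 39 were 2-fold higher, against 3.51% of all measured genes. The median log2 difference from CD25- Foxp3- cells was 1.45 in CD25hi Foxp3+, 1.86 in CD25lo Foxp3+ and 1.78 in CD25+ Foxp3- cells, beside 0.02, -0.05 and -0.01 over all measured genes. These 3 comparisons share the CD25- Foxp3- array. The CD25- Foxp3- array was the lowest by at least 1.5-fold for 36 of the 39 genes, against 7.47% of all measured genes. The exceptions were Pttg1, Kif23 and Cenpa, and by any amount 37 of 39 were lowest there, against 28.4%.

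**Figure D1:**
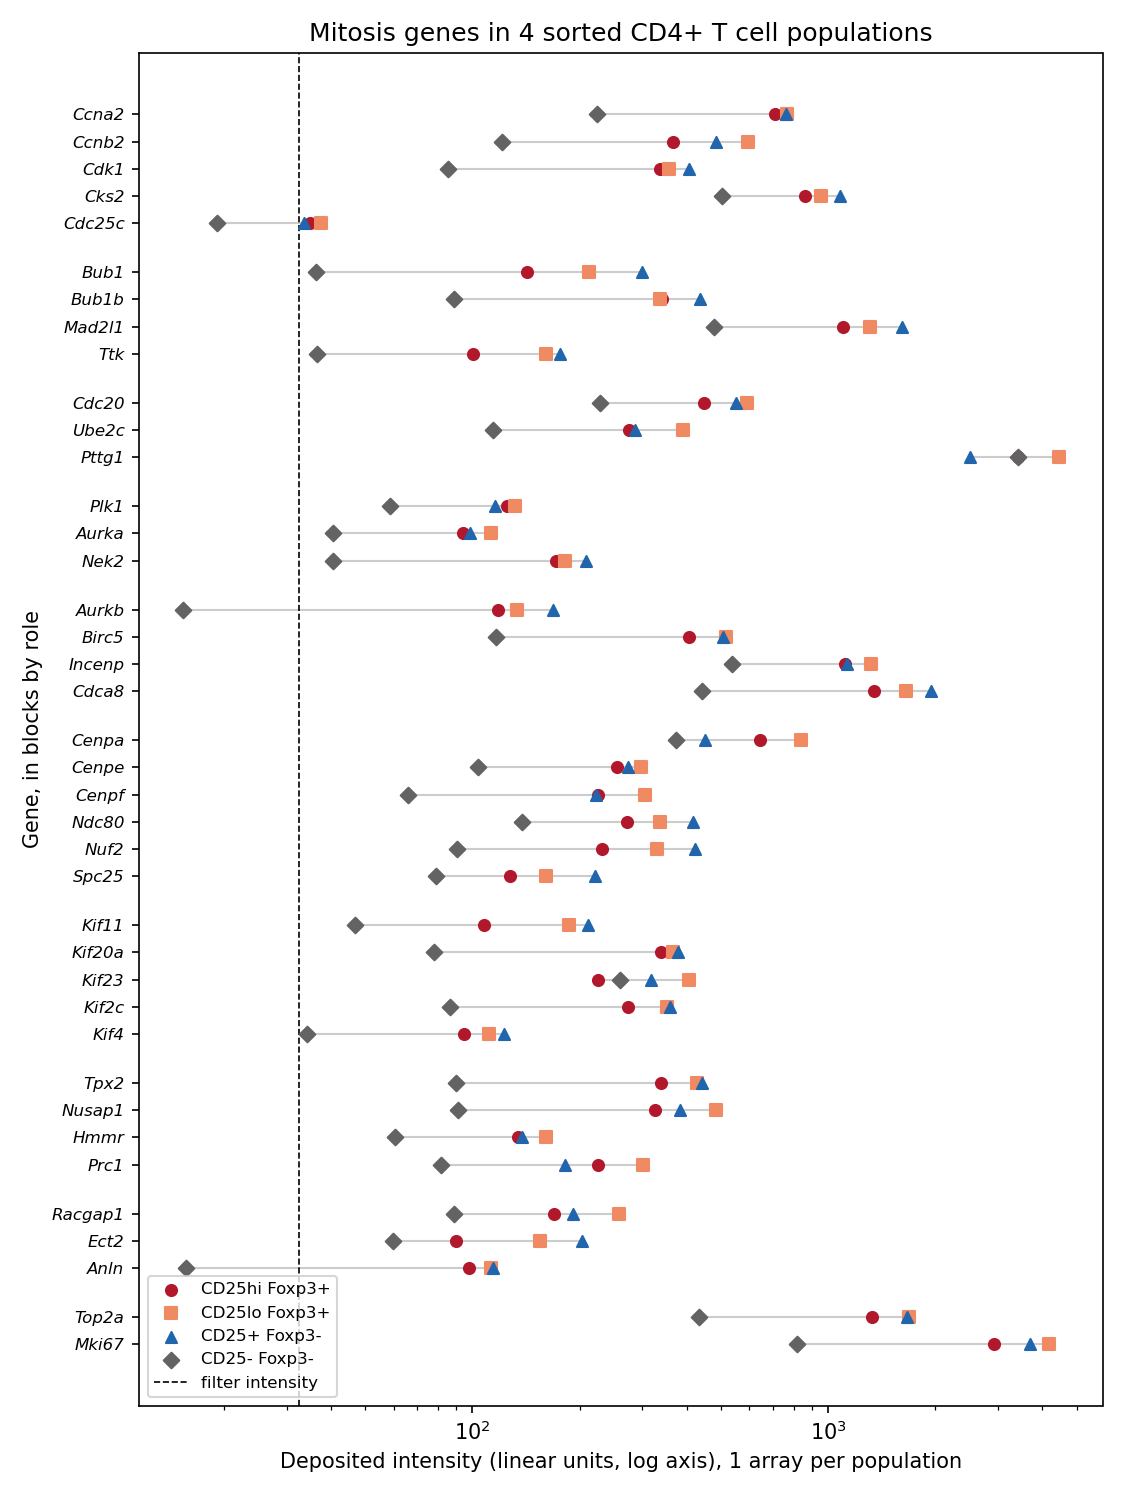
Deposited intensity (log axis) of the 39 measured mitosis genes on the 4 arrays, 1 point per array, in blocks by role; the dashed line is the filter intensity of 32.5. The grey diamonds of CD25- Foxp3- cells lie left of the other 3 arrays in 37 of 39 rows, the exceptions being Pttg1 and Kif23.

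The counts of genes divided by a single sort marker were too near the share of all genes to say anything of the set. No mitosis gene was higher in both Foxp3+ arrays than in both Foxp3- arrays by at least 1.5-fold, where 2.8% of all measured genes were, and none was lower, where 1.93% were. Likewise none was higher in both arrays labelled CD25hi or CD25+ than in the arrays labelled CD25lo or CD25-, against 1.1% of all measured genes, and none was lower, against 0.187%. By the order of their 4 values, 18 genes had CD25+ Foxp3- first, then CD25lo Foxp3+, CD25hi Foxp3+ and CD25- Foxp3-, an order that 7.89% of all measured genes had. A further 13 had CD25lo Foxp3+ first and CD25+ Foxp3- second with the rest the same, against 4.83%. In Cdc25c, Cenpa, Cenpf, Plk1 and Prc1 CD25+ Foxp3- cells came behind CD25lo Foxp3+ and then CD25hi Foxp3+ cells, as in 5.4% of all measured genes. Other measured probe sets changed some of these orders. They placed CD25+ Foxp3- before CD25hi Foxp3+ cells in Prc1 and before CD25lo Foxp3+ cells in Cdc25c. They also placed CD25lo Foxp3+ cells first in Kif11 and CD25+ Foxp3- cells first in Racgap1. By the probe sets read, CD25+ Foxp3- cells were thus the highest for 19 genes, against 30.1%, though for none by 1.5-fold, against 8.39%. CD25lo Foxp3+ cells were the highest for 20, against 21.5%. CD25hi Foxp3+ cells were the highest for none of the 39, against 17.7% of all measured genes.

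The promoters of the set were read for the elements known to time late cell cycle transcription. The set was chosen as genes of G2 and mitosis, so a high share of these elements may follow from that choice. It says nothing of these arrays. The cell cycle genes homology region (CHR) is bound by the DREAM complex, which represses in resting cells, and by the MuvB complex with B-MYB and FOXM1, which activates in dividing ones. CCAAT boxes are bound by the activator NF-Y. RefSeq promoters of build GRCm38.p6, 250 bases before to 50 bases after the gene start and the first where several were listed, were at hand for 34 of the 40 genes, Ccnb1 included. Either CHR form, TTTGAA or TTCGAA on either strand, was found in 25 of the 34, or 73.5%, against 13.9% of 7895 promoters of measured genes and 19.4% of all 27025 promoters. At least 1 CCAAT box on either strand was found in 26, or 76.5%, against 39.2% and 37.9%, and 2 or more in 19, or 55.9%, against 15.7% and 12.2%. Matches of both motifs overlapped in 1 of the 34 promoters. In 23 of the 34 a CHR match began within 50 bases of the gene start. The share of all promoters with a match there was not counted, so this position is not read as particular to the set. Among measured genes, the 25 with a CHR match had median log2 differences from CD25- Foxp3- cells of 1.45 in CD25hi Foxp3+, 1.89 in CD25lo Foxp3+ and 1.78 in CD25+ Foxp3- cells, and the 8 without had 1.32, 1.69 and 1.91 in the same populations. These medians lay closer together than 2 probe sets of the same mitosis gene, which differed by medians of 0.28, 0.36 and 0.44 in these comparisons. No difference by match is therefore read from them. A match is only a run of letters, and its absence says only that these letters are not in this window.

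To show these letters in place, the next lines give the promoters of Ccnb2 at chr9:70421505-70421804 (minus strand), Cdk1 at chr10:69352863-69353162 (minus strand), Bub1 at chr2:127831810-127832109 (minus strand) and Mki67 at chr7:135716330-135716629 (minus strand), as genes with clear differences, and those of Kif23 at chr9:61946750-61947049 (minus strand) and Pttg1 at chr11:43425932-43426231 (minus strand), as the 2 genes not lowest in CD25- Foxp3- cells. Capitals mark CHR and CCAAT matches, and each run is 5′ to 3′ on the gene's strand.
Ccnb2: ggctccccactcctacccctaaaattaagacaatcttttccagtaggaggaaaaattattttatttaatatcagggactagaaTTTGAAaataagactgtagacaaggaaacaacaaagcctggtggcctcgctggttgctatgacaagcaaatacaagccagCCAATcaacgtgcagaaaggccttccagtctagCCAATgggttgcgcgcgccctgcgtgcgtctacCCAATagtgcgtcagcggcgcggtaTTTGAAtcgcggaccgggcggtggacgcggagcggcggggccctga
Cdk1: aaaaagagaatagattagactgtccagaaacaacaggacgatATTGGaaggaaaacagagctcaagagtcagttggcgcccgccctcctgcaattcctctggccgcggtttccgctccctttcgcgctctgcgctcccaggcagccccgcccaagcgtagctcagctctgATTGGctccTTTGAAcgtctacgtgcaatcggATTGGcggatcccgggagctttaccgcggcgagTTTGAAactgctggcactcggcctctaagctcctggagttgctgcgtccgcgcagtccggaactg
Bub1: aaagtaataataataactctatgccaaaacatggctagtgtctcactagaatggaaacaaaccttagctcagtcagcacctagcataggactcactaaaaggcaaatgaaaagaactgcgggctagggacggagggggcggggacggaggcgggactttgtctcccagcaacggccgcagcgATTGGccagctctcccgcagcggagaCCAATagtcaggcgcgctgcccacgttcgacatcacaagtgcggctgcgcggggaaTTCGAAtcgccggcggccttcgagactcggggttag
Mki67: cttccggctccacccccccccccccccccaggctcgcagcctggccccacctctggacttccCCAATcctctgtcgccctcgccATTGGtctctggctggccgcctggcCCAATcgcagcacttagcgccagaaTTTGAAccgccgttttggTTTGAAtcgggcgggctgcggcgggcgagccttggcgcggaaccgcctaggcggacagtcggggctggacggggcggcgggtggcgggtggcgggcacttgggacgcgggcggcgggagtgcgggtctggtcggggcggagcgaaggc
Kif23: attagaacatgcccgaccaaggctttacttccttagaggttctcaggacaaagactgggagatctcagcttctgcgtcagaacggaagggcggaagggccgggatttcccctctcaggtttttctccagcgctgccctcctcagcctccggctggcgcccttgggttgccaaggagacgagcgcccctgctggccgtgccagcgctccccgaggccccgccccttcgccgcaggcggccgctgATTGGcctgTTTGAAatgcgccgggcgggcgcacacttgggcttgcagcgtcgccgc
Pttg1: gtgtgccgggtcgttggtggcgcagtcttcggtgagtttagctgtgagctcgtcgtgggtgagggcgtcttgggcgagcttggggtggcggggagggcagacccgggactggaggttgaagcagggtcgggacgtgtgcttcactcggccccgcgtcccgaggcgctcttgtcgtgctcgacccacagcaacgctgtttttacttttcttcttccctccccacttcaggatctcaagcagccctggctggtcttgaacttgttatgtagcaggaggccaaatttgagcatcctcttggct

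The Ccnb2 promoter holds CCAAT matches beginning 87, 54 and 21 bases before the gene start, and CHR matches 167 bases before and 4 bases after it. In that of Cdk1 CCAAT matches begin 208, 80 and 48 bases before the start and CHR matches 71 and 15 bases before it. Bub1 has CCAAT matches 68 and 42 bases before and a CHR match 14 bases after the start. Mki67 has CCAAT matches 188, 166 and 141 bases and CHR matches 116 and 98 bases before it. The Kif23 promoter holds 1 CCAAT match 7 bases before and 1 CHR match 2 bases after the start, and that of Pttg1 holds neither, as do those of Birc5, Mad2l1, Nuf2 and Nusap1, all 4 of which were at least 2-fold higher in each of the other populations than in CD25- Foxp3- cells.

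The cyclins and the control of CDK1 act first among these genes. Ccna2, the cyclin of S phase and mitotic entry, was read at 711 in CD25hi Foxp3+, 765 in CD25lo Foxp3+ and 760.1 in CD25+ Foxp3- cells, against 224 in CD25- Foxp3- cells. These are 3.17-fold, 3.41-fold and 3.39-fold differences, and the 3 higher populations lay within 1.07-fold of each other by this probe set. The second measured Ccna2 probe set spread them further, at 212, 304 and 329 against 97.9 in the same order, with CD25hi Foxp3+ the lowest of the 3. Ccnb2, a B cyclin, was read at 366 in CD25hi Foxp3+, 595 in CD25lo Foxp3+ and 484 in CD25+ Foxp3- cells, against 121 in CD25- Foxp3- cells. It was spread further, being 1.62-fold lower in CD25hi than in CD25lo Foxp3+ cells. Cdk1, the kinase that the cyclins activate, was read at 336 in CD25hi Foxp3+, 357 in CD25lo Foxp3+ and 405 in CD25+ Foxp3- cells, against 85.4 in CD25- Foxp3- cells, and it was 4.75-fold higher in CD25+ Foxp3- cells. Cks2, a small partner of CDK1, had intensities of 860.2, 953 and 1081 against 504 in the same order, so that 2.14-fold was its widest difference. Cdc25c, the phosphatase that releases CDK1, was dim, with 34.9, 37.5 and 33.6 against 19.1, and its 1.82-fold, 1.96-fold and 1.76-fold differences are uncertain in size.

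All 4 spindle checkpoint genes of this set were higher in CD25+ Foxp3- cells than in the other 3 populations, as 30.1% of all measured genes were. For Ttk the difference from CD25lo Foxp3+ cells was only 1.09-fold. Bub1, a kinase at unattached kinetochores, was read at 142 in CD25hi Foxp3+, 213 in CD25lo Foxp3+ and 301 in CD25+ Foxp3- cells, against 36.3 in CD25- Foxp3- cells. It was 8.29-fold higher in CD25+ Foxp3- than in CD25- Foxp3- cells, and 2.11-fold lower in CD25hi Foxp3+ cells than in those. Bub1b, which encodes the checkpoint protein BubR1, was read at 342 in CD25hi Foxp3+, 337 in CD25lo Foxp3+ and 437 in CD25+ Foxp3- cells, against 88.9 in CD25- Foxp3- cells. By the probe set read for each gene, it was the only one of the 39 not lower in CD25hi than in CD25lo Foxp3+ cells, at 1.01-fold, while its second measured probe set gave 239 in CD25hi and 282 in CD25lo Foxp3+ cells. By contrast, probe sets not read for their genes were higher in CD25hi than in CD25lo Foxp3+ cells for Cdc25c, at 37.9 against 23.4, for Cks2, at 878 against 857, and for Cenpa, at 41.3 against 34.6. Mad2l1, which encodes MAD2, the inhibitor of the anaphase promoting complex, was read at 1102 in CD25hi Foxp3+, 1309 in CD25lo Foxp3+ and 1619.8 in CD25+ Foxp3- cells, against 479 in CD25- Foxp3- cells. Ttk, the checkpoint kinase MPS1, was read at 100.2 in CD25hi Foxp3+, 161 in CD25lo Foxp3+ and 176 in CD25+ Foxp3- cells, against 36.6 in CD25- Foxp3- cells, with CD25hi Foxp3+ 1.61-fold below CD25lo Foxp3+ cells.

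The 3 genes of anaphase onset were highest in CD25lo Foxp3+ cells, where 21.5% of all measured genes were. Cdc20 was only 1.07-fold above CD25+ Foxp3- cells, less than the median gap of 0.25 on the log2 scale between probe sets of a gene. Signs matched between probe sets for 11 of 18 mitosis genes in this comparison, so no contrast with the checkpoint genes is read. Cdc20, which activates the anaphase promoting complex, was read at 448 in CD25hi Foxp3+, 591 in CD25lo Foxp3+ and 551 in CD25+ Foxp3- cells, against 229 in CD25- Foxp3- cells. Ube2c, the ubiquitin-conjugating enzyme of that complex, was read at 275 in CD25hi Foxp3+, 391 in CD25lo Foxp3+ and 287 in CD25+ Foxp3- cells, against 114 in CD25- Foxp3- cells, and CD25lo Foxp3+ cells were 1.36-fold above CD25+ Foxp3- cells. Pttg1, securin, which holds separase inactive until anaphase, was read at 3414 in CD25hi Foxp3+, 4456 in CD25lo Foxp3+ and 2505 in CD25+ Foxp3- cells, against 3415 in CD25- Foxp3- cells. It was thus equal in CD25hi Foxp3+ and CD25- Foxp3- cells, and the CD25+ Foxp3- array was the lowest of the 4. The 2 further measured Pttg1 probe sets gave 307, 328 and 218 against 232, and 45.0, 76.3 and 41.6 against 74.6, in the same order. In none of the 3 was CD25- Foxp3- clearly the lowest, and in all 3 CD25+ Foxp3- was the lowest array.

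Among the mitotic kinases, Plk1, which acts at centrosomes, kinetochores and the midzone, was read at 125 in CD25hi Foxp3+, 132 in CD25lo Foxp3+ and 116 in CD25+ Foxp3- cells, against 58.5 in CD25- Foxp3- cells. Aurka, the spindle pole kinase, was read at 94.3 in CD25hi Foxp3+, 113 in CD25lo Foxp3+ and 98.7 in CD25+ Foxp3- cells, against 40.6 in CD25- Foxp3- cells. For both, the 3 higher populations lay within 1.5-fold of each other. Nek2, which splits centrosomes, was read at 171 in CD25hi Foxp3+, 182 in CD25lo Foxp3+ and 209 in CD25+ Foxp3- cells, against 40.6 in CD25- Foxp3- cells, a 5.14-fold difference between CD25+ and CD25- Foxp3- cells that its second measured probe set gave as 4.23-fold.

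The chromosomal passenger complex corrects faulty attachments and starts cytokinesis. Its kinase gene Aurkb differed most of the 39 from CD25- Foxp3- cells in each of the other populations, at 118 in CD25hi Foxp3+, 134 in CD25lo Foxp3+ and 169 in CD25+ Foxp3- cells, against 15.3 in CD25- Foxp3- cells. The 7.71-fold, 8.72-fold and 11.02-fold differences rest on a CD25- Foxp3- value below the filter, and the other measured Aurkb probe set gave 62.2, 77.5 and 94.8 against 30.9, or 2.01-fold, 2.51-fold and 3.06-fold. Birc5 (survivin), which brings the complex to the centromere, was read at 406 in CD25hi Foxp3+, 517 in CD25lo Foxp3+ and 508 in CD25+ Foxp3- cells, against 117 in CD25- Foxp3- cells. Cdca8 (borealin), its partner there, was read at 1347 in CD25hi Foxp3+, 1662 in CD25lo Foxp3+ and 1951 in CD25+ Foxp3- cells, against 442 in CD25- Foxp3- cells, and all 3 of its probe sets gave a 4.34-fold to 4.77-fold difference between CD25+ and CD25- Foxp3- cells. Incenp, the scaffold of the complex, was read at 1117 in CD25hi Foxp3+, 1325 in CD25lo Foxp3+ and 1131 in CD25+ Foxp3- cells, against 537 in CD25- Foxp3- cells, where CD25hi Foxp3+ and CD25+ Foxp3- cells were within 1.01-fold.

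At the kinetochore, the 3 genes of this set from the microtubule-binding NDC80 complex behaved alike. Ndc80 was read at 272 in CD25hi Foxp3+, 336 in CD25lo Foxp3+ and 417 in CD25+ Foxp3- cells, against 138 in CD25- Foxp3- cells. Nuf2 was read at 231 in CD25hi Foxp3+, 330.3 in CD25lo Foxp3+ and 424 in CD25+ Foxp3- cells, against 90.7 in CD25- Foxp3- cells. Spc25 was read at 127 in CD25hi Foxp3+, 161 in CD25lo Foxp3+ and 221 in CD25+ Foxp3- cells, against 79.0 in CD25- Foxp3- cells. All 3 were highest in CD25+ Foxp3- cells, and CD25hi Foxp3+ cells lay 1.54-fold, 1.83-fold and 1.73-fold below them. The motor gene Cenpe was read at 256 in CD25hi Foxp3+, 297 in CD25lo Foxp3+ and 273 in CD25+ Foxp3- cells, against 104 in CD25- Foxp3- cells by its brightest probe set, with a narrow spread among the 3 higher populations, while its other measured probe set gave 129.7, 227 and 375 against 61.8 and placed CD25+ Foxp3- cells first. Cenpf, a large kinetochore protein of G2, was read at 225 in CD25hi Foxp3+, 305 in CD25lo Foxp3+ and 222 in CD25+ Foxp3- cells, against 65.7 in CD25- Foxp3- cells, highest in CD25lo Foxp3+ cells. Cenpa, the histone H3 variant that marks centromeres, departed from the rest with 645 in CD25hi Foxp3+, 839.9 in CD25lo Foxp3+ and 451 in CD25+ Foxp3- cells, against 373 in CD25- Foxp3- cells. It was 2.25-fold higher in CD25lo Foxp3+ but only 1.21-fold higher in CD25+ Foxp3- than in CD25- Foxp3- cells, and its dimmer probe set gave 41.3, 34.6 and 15.6 against 24.4, also with CD25+ Foxp3- below both Foxp3+ arrays.

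Of the kinesin motors, Kif11 (Eg5), which drives the spindle poles apart, was read at 108 in CD25hi Foxp3+, 186 in CD25lo Foxp3+ and 212 in CD25+ Foxp3- cells, against 46.8 in CD25- Foxp3- cells. Its 2 other measured probe sets gave 131, 172 and 147 against 42.2, and 57.9, 98.1 and 88.9 against 30.6, in the same order. Both placed CD25lo Foxp3+ cells first. Kif20a, a motor of the midzone, was read at 339 in CD25hi Foxp3+, 366 in CD25lo Foxp3+ and 379.6 in CD25+ Foxp3- cells, against 78.2 in CD25- Foxp3- cells, with the 3 higher populations within 1.12-fold. Kif2c (MCAK), which takes apart faulty attachments, was read at 273 in CD25hi Foxp3+, 353 in CD25lo Foxp3+ and 359 in CD25+ Foxp3- cells, against 86.5 in CD25- Foxp3- cells. All 3 were lowest in CD25- Foxp3- cells. Kif4, a chromosome-arm motor, was read at 94.8 in CD25hi Foxp3+, 111 in CD25lo Foxp3+ and 123 in CD25+ Foxp3- cells, against 34.2 in CD25- Foxp3- cells. Kif23, the motor of the centralspindlin complex, did not follow them, with 225 in CD25hi Foxp3+, 406 in CD25lo Foxp3+ and 317 in CD25+ Foxp3- cells, against 259 in CD25- Foxp3- cells. Its CD25hi Foxp3+ value was 1.15-fold below that of CD25- Foxp3- cells and 1.80-fold below that of CD25lo Foxp3+ cells, and its 2 other probe sets stayed below the filter on every array, the brighter of them at 19.2, 31.5 and 28.8 against 17.8.

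Genes of spindle assembly and the midzone were 2.23-fold to 5.33-fold higher in the other populations than in CD25- Foxp3- cells. Tpx2, which activates Aurora A on spindle microtubules, was read at 339 in CD25hi Foxp3+, 427 in CD25lo Foxp3+ and 442 in CD25+ Foxp3- cells, against 89.96 in CD25- Foxp3- cells. Nusap1, which bundles microtubules near chromosomes, was read at 326 in CD25hi Foxp3+, 485 in CD25lo Foxp3+ and 383 in CD25+ Foxp3- cells, against 91.0 in CD25- Foxp3- cells. Hmmr, a spindle pole protein also known as a hyaluronan receptor, was read at 135 in CD25hi Foxp3+, 160.5 in CD25lo Foxp3+ and 137 in CD25+ Foxp3- cells, against 60.4 in CD25- Foxp3- cells. Tpx2 was nearly level between CD25lo Foxp3+ and CD25+ Foxp3- cells, while Nusap1 and Hmmr were highest in CD25lo Foxp3+ cells. Prc1, the bundler of midzone microtubules, was read at 226 in CD25hi Foxp3+, 301 in CD25lo Foxp3+ and 183 in CD25+ Foxp3- cells, against 81.5 in CD25- Foxp3- cells. CD25lo Foxp3+ cells were 1.65-fold above CD25+ Foxp3- cells by this probe set. The other measured Prc1 probe set gave 119, 222 and 151 against 45.4 in the same order, with CD25+ Foxp3- above CD25hi Foxp3+ cells.

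For cytokinesis, Racgap1, the partner of Kif23 in centralspindlin, was read at 169 in CD25hi Foxp3+, 259 in CD25lo Foxp3+ and 191 in CD25+ Foxp3- cells, against 88.7 in CD25- Foxp3- cells. Ect2, the exchange factor that centralspindlin brings to the midzone, was read at 90.01 in CD25hi Foxp3+, 155 in CD25lo Foxp3+ and 204 in CD25+ Foxp3- cells, against 59.6 in CD25- Foxp3- cells, and CD25hi Foxp3+ cells were 2.27-fold below CD25+ Foxp3- cells. Anln (anillin), a scaffold of the contractile ring, was read at 97.9 in CD25hi Foxp3+, 113 in CD25lo Foxp3+ and 114 in CD25+ Foxp3- cells, against 15.6 in CD25- Foxp3- cells, so that its 6.27-fold to 7.32-fold differences rest on a dim value. By the probe sets read, Ect2 and Anln were highest in CD25+ Foxp3- cells and Racgap1 in CD25lo Foxp3+ cells. The other measured Racgap1 probe set gave 124.8, 247.5 and 250.1 against 58.4 in the same order. It placed CD25+ Foxp3- cells first, nearly level with CD25lo Foxp3+ cells, and CD25hi Foxp3+ cells at least 2-fold below CD25+ Foxp3- cells. Top2a, the topoisomerase that untangles sister chromatids, was read at 1329 in CD25hi Foxp3+, 1687 in CD25lo Foxp3+ and 1671 in CD25+ Foxp3- cells, against 434 in CD25- Foxp3- cells. Mki67, the proliferation antigen that coats mitotic chromosomes, was read at 2923 in CD25hi Foxp3+, 4178 in CD25lo Foxp3+ and 3698 in CD25+ Foxp3- cells, against 818 in CD25- Foxp3- cells, differences of 3.57-fold, 5.11-fold and 4.52-fold.

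The comparison of CD25lo Foxp3+ with CD25+ Foxp3- cells asks whether cells with Foxp3 differed from CD25-bearing cells without it. The set was level: 20 mitosis genes were higher, against 49.4% of all measured genes, and 19 lower, against 50.6%. The median log2 difference was 0.01, and none was 2-fold apart in either direction, where 5.17% of all measured genes were higher and 9.04% lower. By 1.5-fold, Cenpa, Pttg1 and Prc1 were higher in CD25lo Foxp3+ cells, at 1.86-fold, 1.78-fold and 1.65-fold, or 3 of 39 against 13.7% of all measured genes. The other measured Prc1 probe set fell just short, at 1.47-fold. By the probe sets read, none was 1.5-fold lower, against 18.8%. The roles were mixed. The 4 checkpoint genes and the 3 NDC80 complex genes of this set were lower in CD25lo Foxp3+ than in CD25+ Foxp3- cells. Their log2 differences ran from -0.50 for Bub1 to -0.13 for Ttk. The other 3 kinetochore genes, Cenpa, Cenpe and Cenpf, were higher by the probe sets read, so that the 6 had a median of -0.10 and no common direction. The other measured Cenpe probe set was lower instead, at -0.72, which is past 1.5-fold. All 3 genes of anaphase onset were higher, from 0.10 for Cdc20 to 0.83 for Pttg1. Most of these are smaller than 1.5-fold, and across the 4425 genes with more than 1 measured probe set, the 2 brightest probe sets differed in this comparison by a median of 0.25 on the log2 scale. With array scaling to housekeeping genes the set's median turned to -0.21 and 11 of 39 genes were higher, while the median of all measured genes moved to -0.23.

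**Figure D2:**
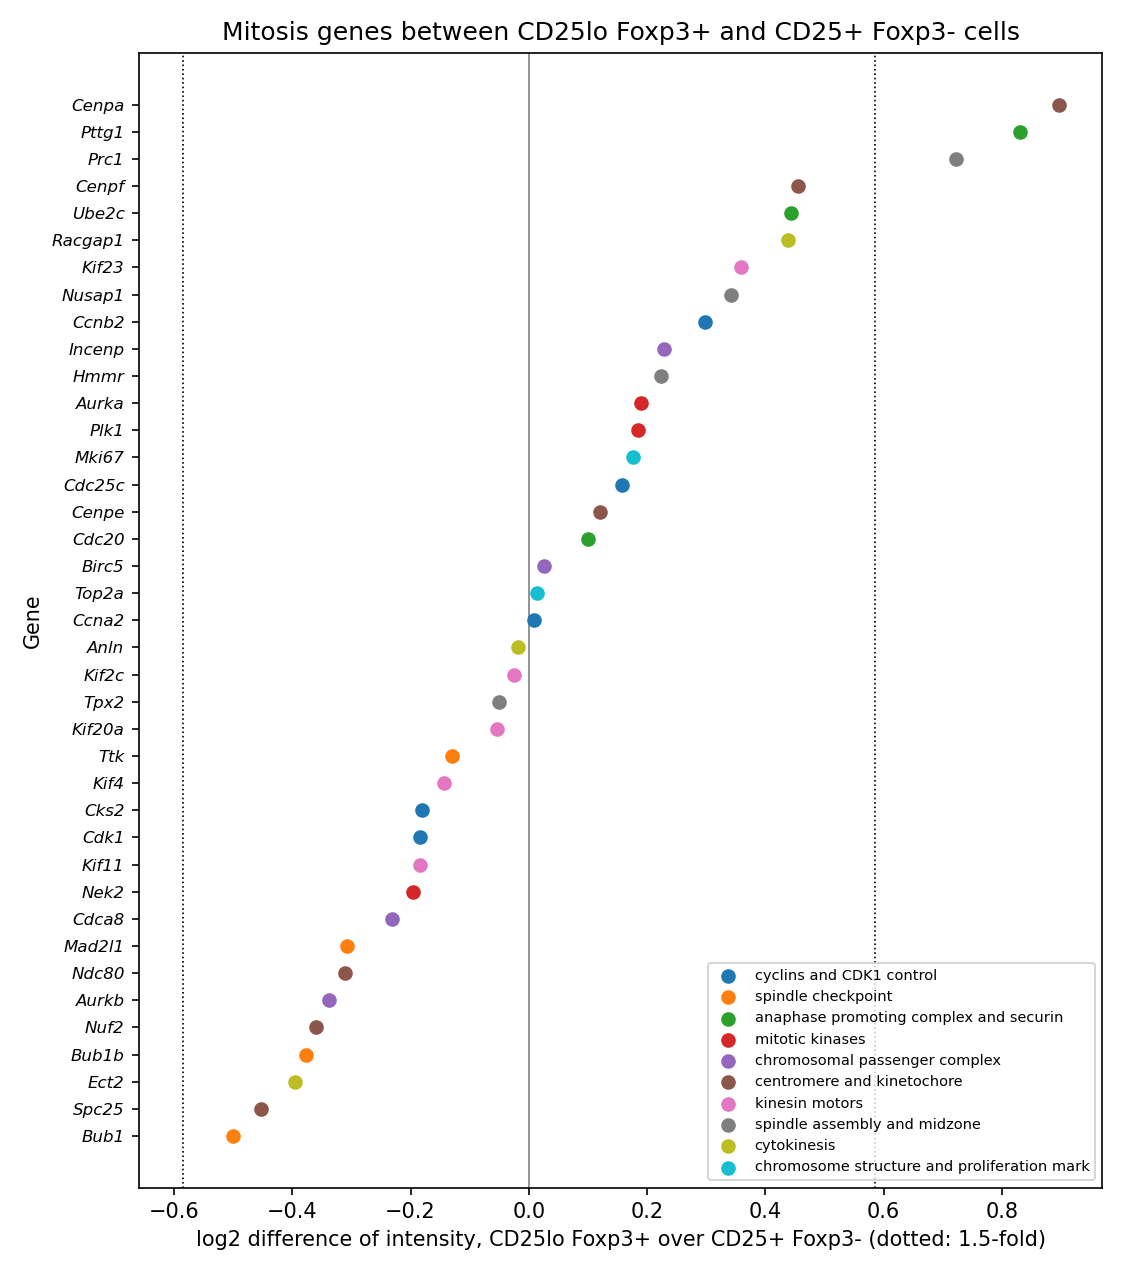
Log2 difference of intensity between CD25lo Foxp3+ and CD25+ Foxp3- cells for the 39 mitosis genes, sorted by size and coloured by role, 1 array per population; dotted lines mark 1.5-fold. By the probe set read for each gene, Cenpa, Pttg1 and Prc1 lie beyond the upper line and none lies beyond the lower one. The checkpoint genes are all left of 0.

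CD25hi Foxp3+ cells were lower than CD25lo Foxp3+ cells for 38 of 39 mitosis genes, against 44.2% of all measured genes. The differences were small, with a median log2 difference of -0.34 beside 0.05 over all measured genes, and none was 2-fold lower, where 2.5% of all measured genes were, or 2-fold higher, where 3.21% were. CD25hi below CD25lo Foxp3+ together with CD25+ above CD25- Foxp3- cells held for 37 of 39, against 25.3%, and the second alone for 38 of 39, against 49.3%. By 1.5-fold in both, it held for 5 of 39, against 3.81%. By 1.5-fold, 6 of 39 were lower, against 8.09%. They were Kif23, Ect2, Kif11, Ttk, Ccnb2 and Racgap1, between 1.53-fold and 1.80-fold. This list rests on the probe sets read. By another measured probe set Kif11 fell short of 1.5-fold, at a log2 difference of -0.40. Others passed it by a second probe set, among them Prc1 at -0.91 and Cenpe at -0.81. Against CD25+ Foxp3- cells, CD25hi Foxp3+ cells were lower for 33 of 39, against 47.5%, with a median of -0.32. None was 2-fold higher, against 4.82%. By 1.5-fold 7 were lower, namely Bub1, Ect2, Kif11, Ndc80, Nuf2, Spc25 and Ttk, against 15.5%. By the probe sets read, Ect2 and Bub1 were 2-fold lower, 2 of 39 against 6.84%, a share close to that of all genes. Other measured probe sets of Cenpe and Racgap1 were 2-fold lower too. Cdc25c, Cenpa, Cenpf, Plk1, Prc1 and Pttg1 were the 6 genes not lower by the probe sets read. The other measured Prc1 probe set was lower, at a log2 difference of -0.35. The CD25hi Foxp3+ array is shared by both comparisons.

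Mitosis and S phase genes ranked the populations differently. Against CD25- Foxp3- cells the 33 S phase genes, which hold the replicative helicase, its loaders and nucleotide synthesis, had median log2 differences of 0.96 in CD25hi Foxp3+, 0.64 in CD25lo Foxp3+ and 2.00 in CD25+ Foxp3- cells. By the median of the S phase genes CD25lo Foxp3+ cells were the last of the 3. By that of the mitosis genes they were first as deposited, but with housekeeping scaling they had 1.68 where CD25+ Foxp3- cells had 1.81. The direct median of CD25lo Foxp3+ over CD25+ Foxp3- cells was below 0 in 3 of the 10 alternative settings. Between CD25lo Foxp3+ and CD25+ Foxp3- cells the value for S phase genes was -1.07, beside 0.01 for the mitosis genes. At least 2-fold lower were 18 of 33 S phase genes and none of 39 mitosis genes, against 9.04% of all measured genes. None of either list was 2-fold higher, against 5.17%. Between CD25hi and CD25lo Foxp3+ cells 26 of 33 S phase genes were higher, against 55.4% of all measured genes, and 7 lower, against 44.2%, with a median of 0.36, where 1 of 39 mitosis genes was higher. Cdc6, which loads the helicase, was read at 204 in CD25hi Foxp3+, 126 in CD25lo Foxp3+ and 756 in CD25+ Foxp3- cells, against 70.8 in CD25- Foxp3- cells. Dtl, a ubiquitin ligase subunit of replication, was read at 163 in CD25hi Foxp3+, 167 in CD25lo Foxp3+ and 613 in CD25+ Foxp3- cells, against 28.6 in CD25- Foxp3- cells. Gins2, of the helicase itself, had 140.4, 72.4 and 297 against 26.8 in that order, Uhrf1 had 406, 283 and 846 against 69.0, Ccne2 (cyclin E2) 96.4, 103 and 231 against 30.5 and Tk1 (thymidine kinase) 282, 241 and 444 against 60.9. Uhrf1, Gins2, Cdc6 and Tk1 were higher in CD25hi than in CD25lo Foxp3+ cells, and all 6 were highest in CD25+ Foxp3- cells. These 6 were named for the widest range of their list, so their shared extremes follow in part from that choice. Dtl, Gins2 and Ccne2 were below the filter in CD25- Foxp3- cells. The difference between the lists has no test, as each population has 1 array, and for CD25hi over CD25lo Foxp3+ cells both medians kept their sign in each of the 10, where the S phase median of CD25hi over CD25lo Foxp3+ cells lay between 0.29 and 0.50 and that of the mitosis genes between -0.44 and -0.21.

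**Figure D3:**
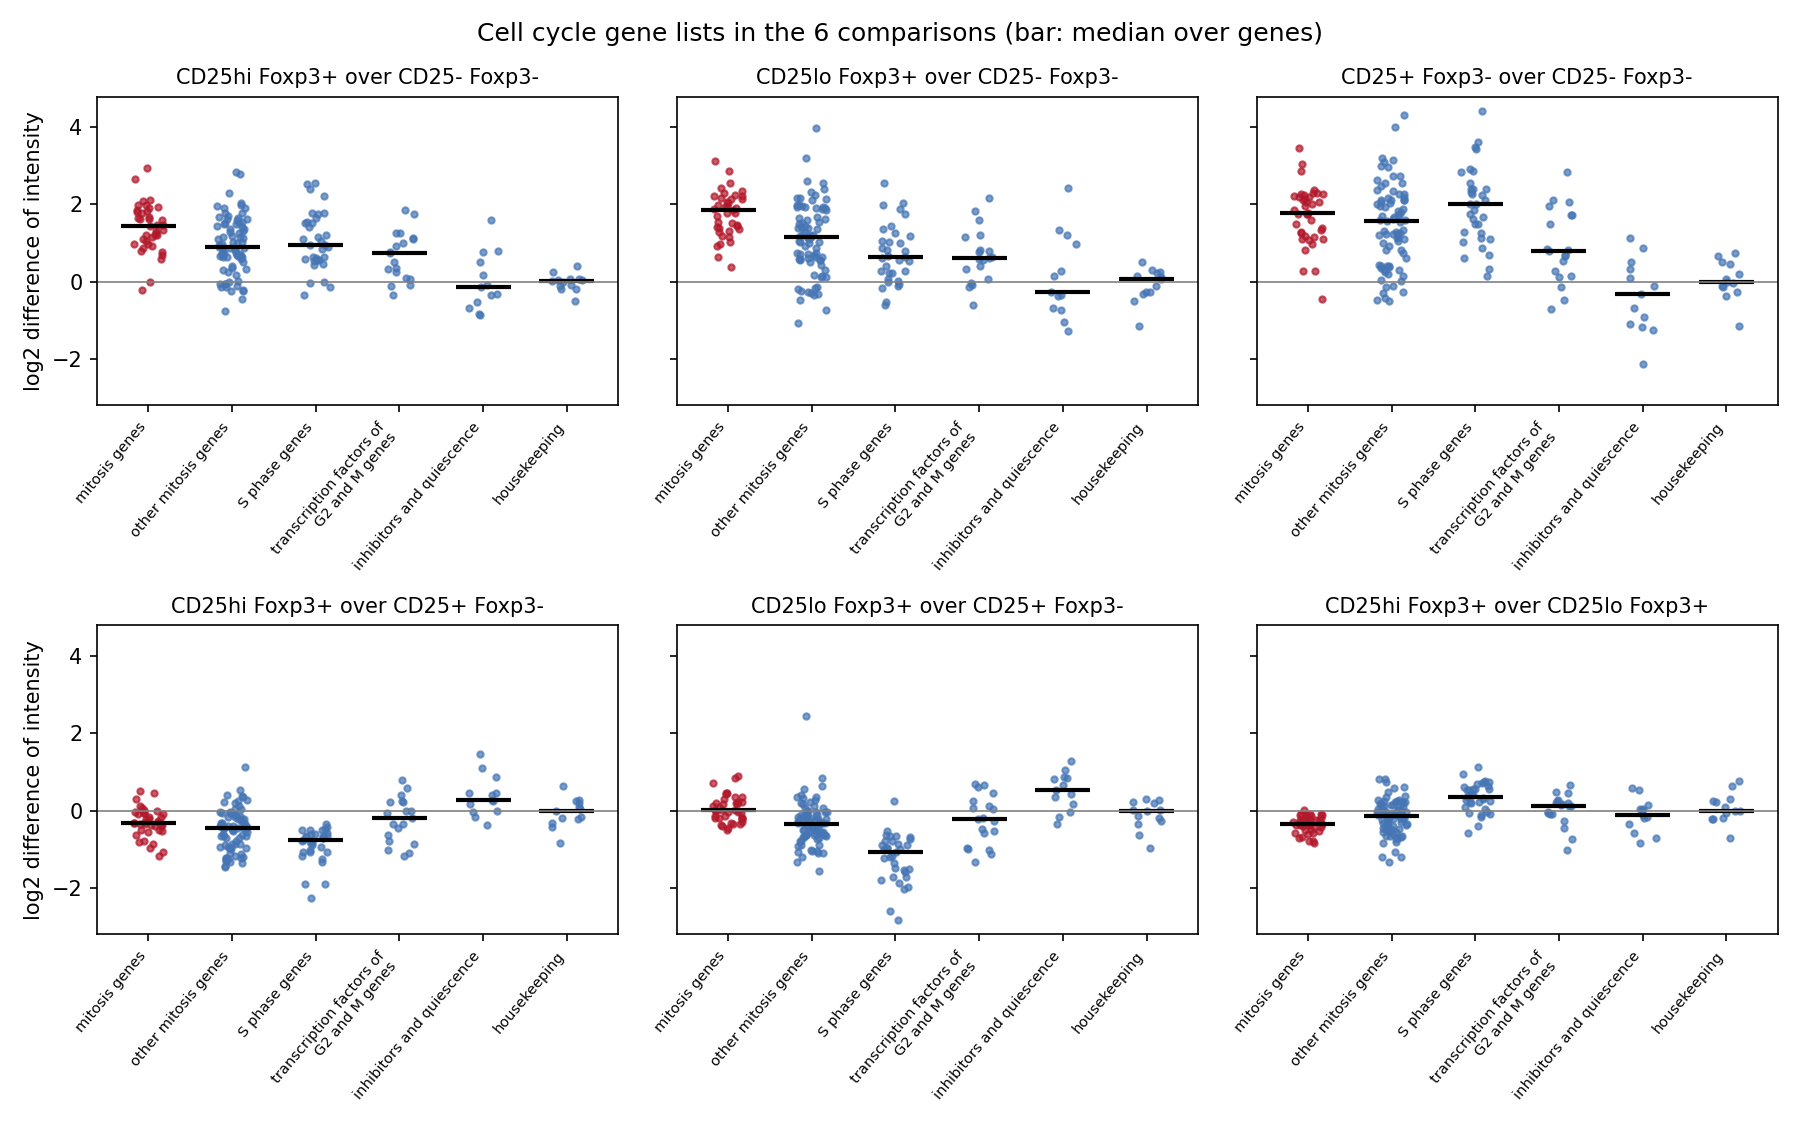
Log2 difference of intensity for 6 gene lists in the 6 comparisons of 2 arrays, 1 point per gene and a bar at each list's median, the 39 mitosis genes in red. The red points lie near 0 between CD25lo Foxp3+ and CD25+ Foxp3- cells, where the S phase genes have a median of -1.07.

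Other genes of mitosis, 78 measured of 85 listed, showed the same direction with smaller medians. These were 0.90 in CD25hi Foxp3+, 1.15 in CD25lo Foxp3+ and 1.56 in CD25+ Foxp3- cells over CD25- Foxp3- cells. At least 2-fold higher were 35, 45 and 52 of 78, against 7.09%, 9.09% and 12.1% of all measured genes. At least 2-fold lower were 0, 1 and 0 of 78, against 3.74%, 6.88% and 6.43%. Ncapg2, a condensin subunit, was read at 179 in CD25hi Foxp3+, 230.3 in CD25lo Foxp3+ and 496 in CD25+ Foxp3- cells, against 25.2 in CD25- Foxp3- cells. Cep55, which acts in abscission, was read at 211 in CD25hi Foxp3+, 482 in CD25lo Foxp3+ and 489 in CD25+ Foxp3- cells, against 30.6 in CD25- Foxp3- cells. Cks1b, the second CKS protein, was read at 2508 in CD25hi Foxp3+, 3659 in CD25lo Foxp3+ and 6741 in CD25+ Foxp3- cells, against 731 in CD25- Foxp3- cells. Ncapg, another condensin subunit, had 248, 389.9 and 589.9 against 66.2 in the same order. Melk, a mitotic kinase, had 165, 178 and 285 against 33.5. Cenpk, of the inner kinetochore, had 89.6, 77.6 and 228 against 28.8. All 6 were lowest in CD25- Foxp3- cells and highest in CD25+ Foxp3- cells. They were named for the widest range on these arrays, so their shared extremes follow in part from that choice. Ncapg2, Cep55 and Cenpk were below the filter in CD25- Foxp3- cells. Over the 56 genes of the list at the filter on every array, the medians against CD25- Foxp3- cells were 0.77, 0.96 and 1.24. Of this list 63 of 78 were lower in CD25lo Foxp3+ cells than in CD25+ Foxp3- cells, against 50.6% of all measured genes. The median log2 difference was -0.34, beside 0.01 for the 39 genes. Between CD25hi and CD25lo Foxp3+ cells 51 of 78 were lower, against 44.2%, with a median of -0.14 beside -0.34 for the 39 genes.

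Both named activators of late cell cycle genes were dim. Foxm1, the forkhead activator of G2 genes, was read at 23.7 in CD25hi Foxp3+, 25.4 in CD25lo Foxp3+ and 36.5 in CD25+ Foxp3- cells, against 11.1 in CD25- Foxp3- cells, passing the filter in CD25+ Foxp3- cells alone. Mybl2 (B-MYB) behaved likewise, with 24.2, 15.2 and 33.2 against 9.98 in that order. E2f1, an activator of S phase genes, was read at 54.2 in CD25hi Foxp3+, 46.9 in CD25lo Foxp3+ and 93.6 in CD25+ Foxp3- cells, against 51.9 in CD25- Foxp3- cells, and was nearly level outside CD25+ Foxp3- cells. The repressive members E2f8 and E2f7 were read at 104, 96.0 and 188 against 43.3 and at 36.8, 30.3 and 42.1 against 8.71. E2f3 was read at 57.8, 61.2 and 124 against 17.2, and Tfdp1, the partner of E2F proteins, at 1061, 961 and 2414 against 624. Rbl2 (p130), the pocket protein of DREAM, was lowest in CD25- Foxp3- cells too: it was read at 1697 in CD25hi Foxp3+, 3449 in CD25lo Foxp3+ and 2177 in CD25+ Foxp3- cells, against 774 in CD25- Foxp3- cells. Of the 19 measured genes of this list, 7, 5 and 7 were at least 2-fold higher than in CD25- Foxp3- cells, against 7.09%, 9.09% and 12.1% of all measured genes. None was 2-fold lower, against 3.74%, 6.88% and 6.43%. Foxm1, Mybl2, E2f3 and E2f7 fell short of the filter in CD25- Foxp3- cells, so they were measured only through higher arrays. The list's median log2 differences were 0.74, 0.62 and 0.79, and 0.36, 0.56 and 0.66 over the 15 genes at the filter on every array.

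Among 13 measured genes of cell cycle inhibition and quiescence, 0, 2 and 4 were at least 2-fold lower in CD25hi Foxp3+, CD25lo Foxp3+ and CD25+ Foxp3- cells than in CD25- Foxp3- cells, and 1, 3 and 1 were 2-fold higher. Of all measured genes 3.74%, 6.88% and 6.43% were lower and 7.09%, 9.09% and 12.1% higher, so counts of 0 and 1 gene are near the share of all genes. Klf2, a factor of resting T cells, was read at 1908 in CD25hi Foxp3+, 1267 in CD25lo Foxp3+ and 697 in CD25+ Foxp3- cells, against 3039.7 in CD25- Foxp3- cells. Cdkn2c, the CDK inhibitor p18, went with the mitosis genes, with 336 in CD25hi Foxp3+, 602 in CD25lo Foxp3+ and 246 in CD25+ Foxp3- cells, against 111 in CD25- Foxp3- cells. Btg2, an antiproliferative gene, had 1637, 1786 and 1242 against 2965 and Foxo3 had 327, 316 and 181 against 404 in that order, both highest in CD25- Foxp3- cells. Ccng2 (cyclin G2) had 1161, 1724 and 968 against 678 and Tob1 had 292, 477 and 376 against 205, both highest in CD25lo Foxp3+ cells. Cdkn1a, Cdkn1c, Cdkn2a and Cdkn2b did not reach the filter on any array. The 13 housekeeping genes had medians of 0.03, 0.06 and -0.01 against CD25- Foxp3- cells.

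Different probe sets of the same gene gave a check within each array. A total of 18 mitosis genes had at least 2 measured probe sets, which share the RNA and the hybridisation. The 2 brightest of each gave the same sign against CD25- Foxp3- cells for 17 of 18 genes in CD25hi Foxp3+, 18 in CD25lo Foxp3+ and 17 in CD25+ Foxp3- cells. Of all 4425 genes with several, 3071, 3204 and 3099 had matching signs. Both probe sets were at least 2-fold higher for 11, 13 and 14 mitosis genes, against 176, 207 and 257 of the 4425. The 2 of a mitosis gene differed by a median of 0.28, 0.36 and 0.44 on the log2 scale in these comparisons. Over the 4425 genes these medians were 0.26, 0.34 and 0.41. Aurkb differed most. Its brighter probe set has the suffix by which the maker marks probes that may cross-hybridise. Those read for Cdc20, Incenp and Kif2c have the same suffix. A second Top2a probe set, dimmer by far, gave 56.6, 78.5 and 86.6 against 43.0, or 2.02-fold between CD25+ and CD25- Foxp3- cells where the brighter gave 3.85-fold. Between CD25lo Foxp3+ and CD25+ Foxp3- cells the signs matched for 11 of 18 mitosis genes, against 3393 of the 4425 genes. Between CD25hi and CD25lo Foxp3+ cells they matched for 14 of 18, against 3138 of 4425.

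**Figure D4:**
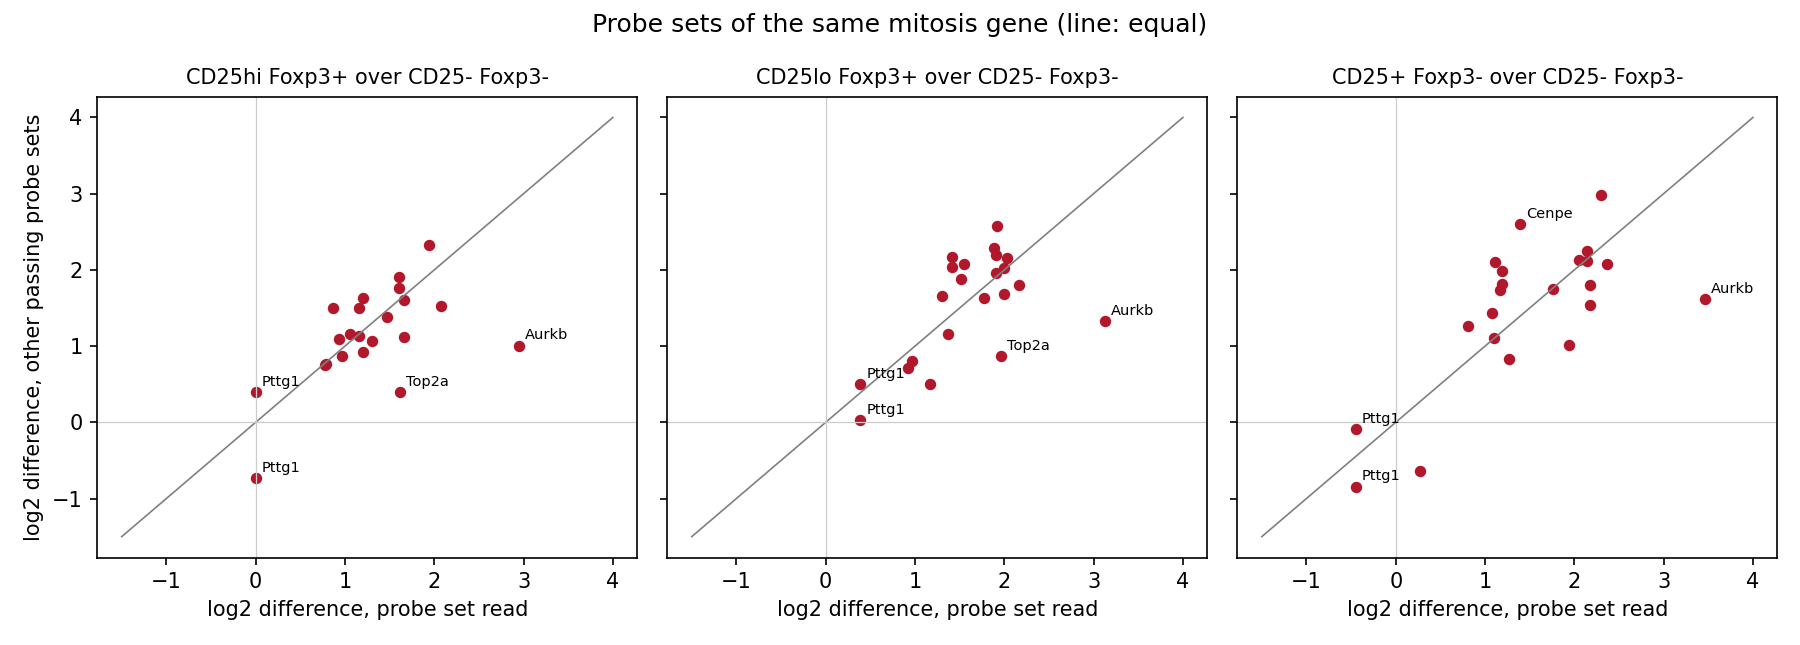
Log2 difference of intensity against CD25- Foxp3- cells by the probe set read for each mitosis gene (horizontal) and by every other measured probe set of that gene (vertical), 1 panel per population; the line marks equal values. Named are Pttg1 and the genes furthest from the line, Aurkb and Top2a in the first 2 panels and Aurkb and Cenpe in the third.

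Transcripts of other cell types were measured beside the mitosis genes. The summed intensity of 8 measured CD8 T and NK cell genes of 10 listed was 444, 451 and 1740.3 against 1974 in CD25- Foxp3- cells, with CD25hi Foxp3+, CD25lo Foxp3+ and CD25+ Foxp3- cells in that order before it, as for the other sums. For 6 of 12 myeloid and dendritic genes it was 177, 436 and 485 against 776, and Itgam, Itgax, Cd14 and Siglech were below the filter on every array. For 4 of 9 B cell genes it was 9007, 10066 and 10225 against 14426, nearly all of it Ighm, while Cd79a, Pax5, Cr2 and Fcer2a were below the filter on every array. These 3 sums were highest in CD25- Foxp3- cells, where the mitosis genes were lowest, but some of their genes were highest in CD25+ Foxp3- cells. Among them were Gzmk at 416 in CD25+ and 139 in CD25- Foxp3- cells, Eomes at 411 and 106, Ncr1 at 36.2 and 10.7, Tyrobp at 109.8 and 95.4, Adgre1 at 45.4 and 21.1, and Blk at 46.3 and 20.03. The 6 measured of 8 germinal centre B cell and plasmablast genes, a cycling type, summed to 3543, 4034 and 7721 against 4030.1, highest in CD25+ Foxp3- cells. The plasma cell genes Jchain and Sdc1 had 558, 1021 and 3092 against 1939.7 and 11.9, 11.5 and 81.8 against 31.3. Much of the sum was also Xbp1, at 1838, 1562 and 2410 against 1461, and Irf4, at 912, 900 and 1579 against 250. Irf4 was thus higher in both Foxp3+ populations too, where Jchain and Sdc1 were lower than in CD25- Foxp3- cells. Red cell precursors cycle as well, and 4 of 8 such genes summed to 1395, 1131 and 2303 against 1665, also highest in CD25+ Foxp3- cells. That sum is mainly Tfrc, the transferrin receptor, which activated T cells express too, while Alas2, Car1 and Klf1 were highest in CD25- Foxp3- cells, and Hba-a1 and Epor were below the filter. The part of these markers in the mitosis values of CD25+ Foxp3- cells was not tested.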

How the data were processed

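Total RNA of 4 sorted CD4+ T cell populations was amplified in 2 cycles and hybridised to Affymetrix mouse whole-genome arrays, 1 array per population, per the labels. Each probe set has 1 deposited linear intensity on each array. For the authors' probe summary and array scaling, the tool and method are not given in the sources used here. Of 45101 probe sets, 64 were controls, 34945 had 1 gene in the platform annotation, 932 had several and 9160 were not listed with a gene. Entrez identifiers were matched to RefSeq names, which changed no symbol. The floor was the 40th and the filter the 60th percentile of all values, and differences were taken on the log2 scale of deposited intensities. With 1 array per group there is no replicate, error or test. Calls are size rules of 2-fold between 2 arrays and of 1.5-fold between groups of arrays. They have no known error rate, and a run on simulated data checked only that the code applies them. The share of all measured genes passing a rule is given beside the members' count. The genes, the lists and the naming rule, under which all 40 genes and at most the widest-ranging 6 of each other list, with Foxp3, Il2ra, Foxm1, Mybl2 and E2f1, are named, were chosen with earlier results of these data known. The number of arrays limits the precision. Python 3.11.15, pandas 2.3.3 and numpy 2.4.6 were used.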

Additional observations from a re-analysis of the deposited data

Results flagged for a closer look

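For most of the 39 genes the difference by CD25 label ran in opposite directions in Foxp3+ and Foxp3- cells, and within Foxp3+ cells it was small. Within Foxp3+ cells 38 of 39 mitosis genes were lower in CD25hi than in CD25lo cells, against 44.2% of all measured genes. Within Foxp3- cells 38 of 39 were higher in CD25+ than in CD25- cells, against 49.3%, and both held for 37, against 25.3%. The first log2 difference minus the second had a median of -2.20 over the 39 genes. By at least 1.5-fold in both comparisons this was seen in Ccnb2, Ttk, Kif11, Racgap1 and Ect2, 5 of 39 against 3.81% of all measured genes, where the first minus the second was -2.70, -2.95, -2.97, -1.72 and -2.56. The log2 difference within Foxp3+ cells was -0.70, -0.68, -0.79, -0.62 and -0.78 for these genes, and within Foxp3- cells it was 2.00, 2.27, 2.18, 1.11 and 1.78. These values rest on the probe set read for each gene. The 2 other measured Kif11 probe sets gave -0.40, short of 1.5-fold, and -0.76 within Foxp3+ cells. The second Racgap1 probe set gave -0.99 there. With 1 array per population the difference between the effects was not tested. Within Foxp3+ cells the median log2 difference of the 39 genes was -0.34. In that comparison the 2 brightest probe sets of 4425 genes differed by a median of 0.24. They matched in sign for 14 of 18 mitosis genes, against 3138 of the 4425. Of 78 other mitosis genes 51 were lower in CD25hi than in CD25lo Foxp3+ cells, with a median of -0.14. The CD25 labels name different gates in the Foxp3+ and Foxp3- cells, and Il2ra itself read 288 in CD25lo Foxp3+ and 283 in CD25+ Foxp3- cells.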

How the results depend on the processing

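Counts against CD25- Foxp3- cells kept within 1.5 times of the reported ones under every alternative, with 27 to 37 genes at least as far apart as the size rule in CD25hi Foxp3+, 32 to 38 in CD25lo Foxp3+ and 32 to 36 in CD25+ Foxp3- cells. The 3 medians lay between 1.27 and 1.45, 1.68 and 1.89, and 1.76 and 1.81. Scaling to housekeeping genes moved the median of all measured genes to -0.23 in CD25lo Foxp3+ over CD25- Foxp3- cells and over CD25+ Foxp3- cells, and then 11 genes were higher in CD25lo Foxp3+ than in CD25+ Foxp3- cells, 3 genes (Bub1, Ect2 and Spc25) were highest in CD25+ Foxp3- cells by 1.5-fold, and 32 of 39 were lower in CD25hi than in CD25lo Foxp3+ cells. Reading the mean of all measured probe sets made Cenpa 2-fold higher in CD25lo Foxp3+ than in CD25+ Foxp3- cells (1 gene) and higher in both Foxp3+ arrays by 1.5-fold (1 gene). Reading the dimmest measured probe set, or only probe sets with a plain suffix, put 1 gene, Cenpa, 2-fold higher in CD25hi Foxp3+ and in CD25lo Foxp3+ than in CD25+ Foxp3- cells and 1 gene, Pttg1, lower in both arrays labelled CD25hi or CD25+ by 1.5-fold. With the dimmest, 4 genes were 2-fold lower in CD25hi Foxp3+ cells than in CD25+ Foxp3- cells and 1, Cenpe, was highest in CD25+ Foxp3- cells by 1.5-fold. A size rule of 1.5-fold in place of 2-fold gave 7 genes lower in CD25hi Foxp3+ than in CD25+ Foxp3-, 3 higher in CD25lo Foxp3+ than in CD25+ Foxp3- and 6 lower in CD25hi than in CD25lo Foxp3+ cells, since it admits smaller differences. The cause of the other changes was not tested. The remaining alternatives were lower or no floors, no filter, a filter on all 4 arrays, scaling to the 75th percentile and quantile normalization, which moved none of the counts by over 1.5 times. The median of CD25lo Foxp3+ over CD25+ Foxp3- cells lay between -0.21 and 0.05, and turned sign with the housekeeping scaling and with the mean or the dimmest probe set. A gap rule of 2-fold left 28 genes lowest in CD25- Foxp3- cells. No replicate could be left out, and no paired analysis was possible because each group has 1 array.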
